A study of Homo sapiens with 9 samples.

Results

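The genes described here are the 144 human ZNF genes, named by ZNF, a number and at most 1 letter, whose mean CPM over all 9 libraries was 10 or more, CPM being a raw count scaled to the library total. They were chosen from 519 such genes with a count in at least 1 library. The threshold used the level averaged over all libraries and no difference between groups, and that level is a description of the choice, not a finding. Just inside it lay ZNF277 at 10.18 CPM, ZNF205 at 10.16 and ZNF776 at 10.15, and just outside it ZNF764 at 9.827, ZNF544 at 9.593 and ZNF654 at 9.554. A mean over libraries can be carried by 1 group: 95 of the 144 had 10 CPM or more in each group, 27 were under 10 in pseudopodia, 27 in cell bodies and 11 in whole cells.

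All libraries came from hTERT-MSC, an adipose-derived human mesenchymal stem cell line immortalised with telomerase (ATCC SCRC-4000). The cells were deprived of serum, left for 2 h on inserts with 3 µm pores and given 50 ng/mL of the growth factor PDGF-BB for 1 h. RNA was sequenced from 3 pseudopodia libraries (material scraped from the lower face of the membrane), 3 cell body libraries (from its upper face) and 3 whole-cell libraries, whose collection the labels do not describe separately. Nothing in the labels says that the replicates were grown as separate cultures; the spread behind each p-value is therefore that of these libraries and may be technical. A bulk library gives relative RNA levels only, and a change in the number of cells or fragments sampled cannot be told apart from a change in RNA per cell.

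ZNF genes encode proteins with zinc fingers, mostly of the C2H2 kind, in which a pair of cysteines and a pair of histidines hold a zinc ion and the loop between them reads DNA, RNA or another protein. The largest subfamily joins a row of fingers to a KRAB domain, which recruits the scaffold protein TRIM28 and with it the machinery that silences transposable elements and imprinted genes; many of these genes lie in clusters on chromosome 19. Other ZNF proteins have no KRAB domain and work in chromatin complexes, at promoters, on ribosomes or on RNA. Most act in the nucleus.

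The finger that gives the family its name is shown for 8 members with high or low levels in pseudopodia, taken from 2 different comparisons. Each stretch of 81 bases, on the coding strand, runs from the first cysteine of a finger into the usual linker to the next finger, with the codons of the 2 cysteines and 2 histidines in capitals. The first 4 are from members with the highest pseudopodia level relative to cell body, and the last 4 from members with the lowest level relative to whole cell.
ZNF316: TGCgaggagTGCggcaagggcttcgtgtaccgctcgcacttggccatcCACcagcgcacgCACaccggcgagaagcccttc
ZNF768: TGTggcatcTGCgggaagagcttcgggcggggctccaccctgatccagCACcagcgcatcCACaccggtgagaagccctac
ZNF445: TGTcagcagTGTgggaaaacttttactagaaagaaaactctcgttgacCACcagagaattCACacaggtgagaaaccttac
ZNF71: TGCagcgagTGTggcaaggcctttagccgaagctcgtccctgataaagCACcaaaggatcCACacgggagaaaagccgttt
ZNF83: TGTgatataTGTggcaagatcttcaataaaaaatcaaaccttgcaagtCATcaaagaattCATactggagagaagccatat
ZNF84: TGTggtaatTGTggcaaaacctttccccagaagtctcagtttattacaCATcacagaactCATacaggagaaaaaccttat
ZNF160: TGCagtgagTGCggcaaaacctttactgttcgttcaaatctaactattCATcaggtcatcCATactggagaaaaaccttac
ZNF33A: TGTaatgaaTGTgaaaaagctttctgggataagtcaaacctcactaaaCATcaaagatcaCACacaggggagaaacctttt
The positions on GRCh38 are, in the same order, chr7:6652719-6652799 (plus strand), chr16:30525273-30525353 (minus), chr3:44447544-44447624 (minus), chr19:56621681-56621761 (plus), chr19:52614118-52614198 (minus), chr12:133057424-133057504 (plus), chr19:53069595-53069675 (minus) and chr10:38055199-38055279 (plus). All lie in coding exons in GENCODE release 29. The stretches code for the same cysteine and histidine positions, with synonymous codons that differ between genes. GC content was 66.7% in ZNF316, 65.4% in ZNF768, 42% in ZNF445 and 54.3% in ZNF71, against 33.3% in ZNF83, 38.3% in ZNF84, 40.7% in ZNF160 and 37% in ZNF33A. The stretches were taken in order of fold change from members that held such a finger, leaving out ZNF707, and they describe these 8 genes only.

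The 144 members lay on 20 chromosomes, 42 of them on chromosome 19. In GENCODE 143 are protein coding, and ZNF271P is a transcribed pseudogene. The number of finger patterns in the encoded protein had a median of 9 and ran from 0 in 3 members to 33 in ZNF462. A KRAB-like stretch was found in 48 members, 21 of them on chromosome 19. Per length, the most abundant member was ZNF703, a corepressor linked to luminal breast cancer, with a mean of 242 TPM (transcripts scaled for gene length and library total) over all libraries. It was followed by ZNF358 at 150 TPM, ZNF768 at 138, ZNF622 at 119 and ZNF664 at 87.2. ZNF622 takes part in the maturation of the large ribosomal subunit. By reads the order differed, since long transcripts collect more of them: ZNF469, ZNF106, ZNF703, ZNF664 and ZNF316 had the highest mean CPM.

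Library totals ran from 55469030 to 83894938 counts. The members held 0.514% to 0.587% of all counts in pseudopodia, 0.377% to 0.423% in cell bodies and 0.435% to 0.452% in whole cells, and the 3 ranges did not overlap. The spread between replicates differed by group: the biological coefficient of variation was 32.8% in pseudopodia, 17.6% in cell bodies and 5.08% in whole cells, while the test shares 1 spread per gene over all 9 libraries. Pseudopodia replicates 2 and 3 stood apart from each other by base composition. Across the 144 members, the deviation of replicate 2 from its group's mean correlated with transcript GC content at r = -0.683 and that of replicate 3 at r = 0.733, and over 18675 genes the values were -0.56 and 0.569. Summed CPM of 13 mesenchymal markers ran from 27653 to 33736 in pseudopodia, 48404 to 57003 in cell bodies and 48159 to 49329 in whole cells, and 11 of the 13 were lower in pseudopodia than in cell bodies. Of 8 endothelial markers the summed CPM was 95.6 to 118, 77.9 to 109 and 77.7 to 79.6 in the same order, of 8 haematopoietic markers 65.2 to 80.9, 73.2 to 83.7 and 67 to 69.7, and of 8 epithelial markers 280 to 399, 281 to 320 and 165 to 181. Within the endothelial list the genes went opposite ways in pseudopodia against cell body: ERG was at 32.7, 37.5 and 18.5 CPM against 1.34, 1.23 and 1.78 (log2 fold change 4.35) and VWF at 1.40, while CDH5 was at -2.12 and TEK at -0.59. The red cell gene HBB was at 0 in all libraries, and the endothelial genes CLDN5 and KDR were at 0 in all cell body and whole-cell libraries. The part of these differences in the results was not tested.

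More ZNF members were higher than lower in pseudopodia relative to cell bodies. Of the 144, 51 rose and 15 fell (edgeR quasi-likelihood test, Benjamini-Hochberg adjusted p under 0.05 over 19426 genes), and 78 did not pass. Over all genes tested, 18.6% were called higher and 19.9% lower, and among the 8707 genes with a mean of 10 CPM or more, 25.5% and 23.6%. In either direction the shares were 38.5% and 49.1%. The members' shares were 35.4% higher and 10.4% lower. At least a 2-fold difference was found in 24 of those that rose and 6 of those that fell. The members' median log2 fold change was 0.27, which is 0.31 above the median of all genes. Genes with 10 CPM or more had a median of 0.01. Restricting the count to the 95 members with 10 CPM or more in each group left 39 higher and 6 lower. The balance depended on the scale: on log2(TPM + 1), which shifted the median of all genes by -0.12, 35 members were higher and 28 lower, so that 55.6% of the calls were upward in place of 77.3%, and the members' median was -0.03, or 0.14 above that of all genes.

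**Figure D1:**
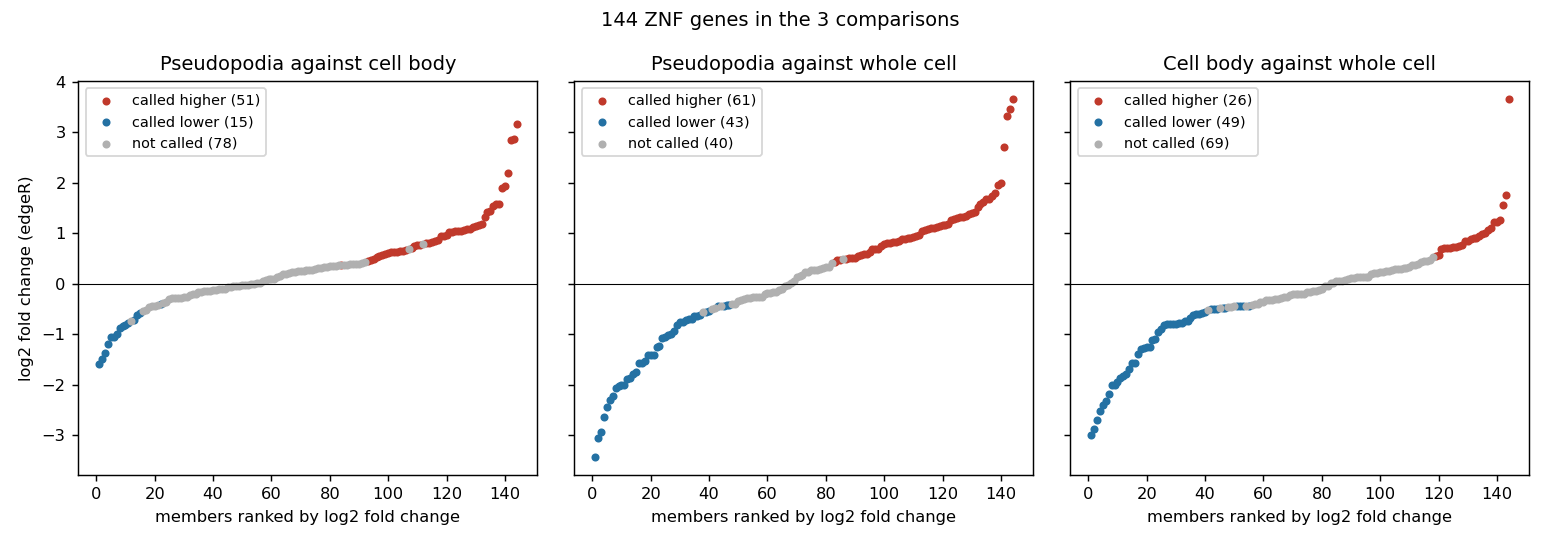
Log2 fold change (vertical axis, edgeR) of the 144 ZNF members, ranked from lowest to highest (horizontal axis) in each of the 3 comparisons, 1 point per gene, coloured by call. In pseudopodia against cell body 51 members were called higher and 15 lower, against whole cell 61 and 43, and in cell body against whole cell 26 and 49.

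ZNF707, ZNF316 and ZNF768 had the largest rises. ZNF707, a KRAB zinc finger gene, was at 75.3, 75.8 and 104 CPM in the 3 pseudopodia libraries and at 8.98, 9.95 and 9.33 CPM in the cell body libraries. The groups did not overlap, and the log2 fold change was 3.17 ± 0.16 (SE, adjusted p = 1.67e-07), or 9.02-fold. Its exons overlap those of CCDC166 and AC105219.2 on the opposite strand, and whether the counting used strand is not given in the sources used here. ZNF316 (chr7:6637322-6656432), also of the KRAB kind, was at 222, 237 and 369 CPM in pseudopodia against 35.5, 38.7 and 38.9, a log2 fold change of 2.87 ± 0.188 (adjusted p = 9.8e-07). ZNF768 (chr16:30524001-30526821), which has no KRAB-like stretch and binds a class of ancient repeats, was at 195, 172 and 265 CPM against 32.0, 29.3 and 27.1, a log2 fold change of 2.84 ± 0.17 (adjusted p = 5.5e-07). Exons of ZNF768 overlap those of AC002310.5 on the same strand. Replicate 3 was the highest pseudopodia library for each of ZNF707, ZNF316 and ZNF768. Without it the log2 fold changes were 3.00, 2.61 and 2.64, and on log2(TPM + 1) they were 2.69, 2.49 and 2.51. With a correction for GC content and length they were 3.06, 2.39 and 2.64.

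ZNF445, a KRAB zinc finger protein that maintains genomic imprints, followed with 93.0, 91.6 and 115 CPM in pseudopodia and 15.7, 23.9 and 25.7 CPM in cell bodies (log2 fold change 2.19 ± 0.186, adjusted p = 5.14e-06). Exons of ZNF445 overlap those of C3orf86 on the same strand. ZNF71 rose by 1.94 ± 0.147 on the log2 scale, from 7.95, 9.37 and 9.43 CPM in cell bodies to 33.6, 29.9 and 38.9 in pseudopodia. ZNF609, a regulator of myoblast growth and of cohesin loading, was at 174, 166 and 220 CPM in pseudopodia and 35.4, 59.0 and 56.6 in cell bodies (log2 fold change 1.89 ± 0.194). Its transcripts include a well known circular RNA, which gene-level counts do not separate from the linear one. ZNF106, an RNA-binding protein of nerve and muscle, reached 300, 383 and 316 CPM in pseudopodia, the highest level by reads after ZNF469, against 85.3, 144 and 104 in cell bodies (log2 fold change 1.58 ± 0.186). ZNF641 had the same log2 fold change, 1.58 ± 0.176, at 33.6, 26.0 and 41.0 CPM against 10.0, 10.9 and 12.8.

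The falls were smaller. ZNF281, a factor that represses stem cell genes and takes part in the epithelial to mesenchymal transition, was at 16.2, 20.4 and 10.0 CPM in pseudopodia and 42.8, 55.2 and 42.4 in cell bodies, a log2 fold change of -1.59 ± 0.227 (adjusted p = 0.000242). ZNF770 was at 5.1, 9.5 and 3.3 CPM against 13.3, 20.1 and 17.3 (log2 fold change -1.50 ± 0.332, adjusted p = 0.00591). The other large falls were mostly in KRAB genes of chromosome 19. ZNF776 was at 4.36, 4.91 and 5.03 CPM in pseudopodia against 10.1, 14.4 and 12.7 (log2 fold change -1.38), ZNF587 fell by 1.19 on the log2 scale, ZNF791 by 1.06, ZNF160 by 1.05 and ZNF805 by 0.88. In ZNF160 the groups overlapped, at 3.15, 5.6 and 3.66 CPM against 7.88, 12.5 and 5.36. KRAB genes of 1 cluster are close copies of each other, and reads shared between copies could be split among them by the counting, so single values carry that uncertainty. Exons of ZNF587 also overlap those of ZNF814 on the opposite strand and of AC010522.1 on the same strand. Those of ZNF776 overlap exons of AC003006.1 on the same strand. ZNF207, a kinetochore and microtubule-binding protein, was at 60.9, 61.2 and 38.8 CPM against 107, 104 and 109 (log2 fold change -0.99 ± 0.165).

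**Figure D2:**
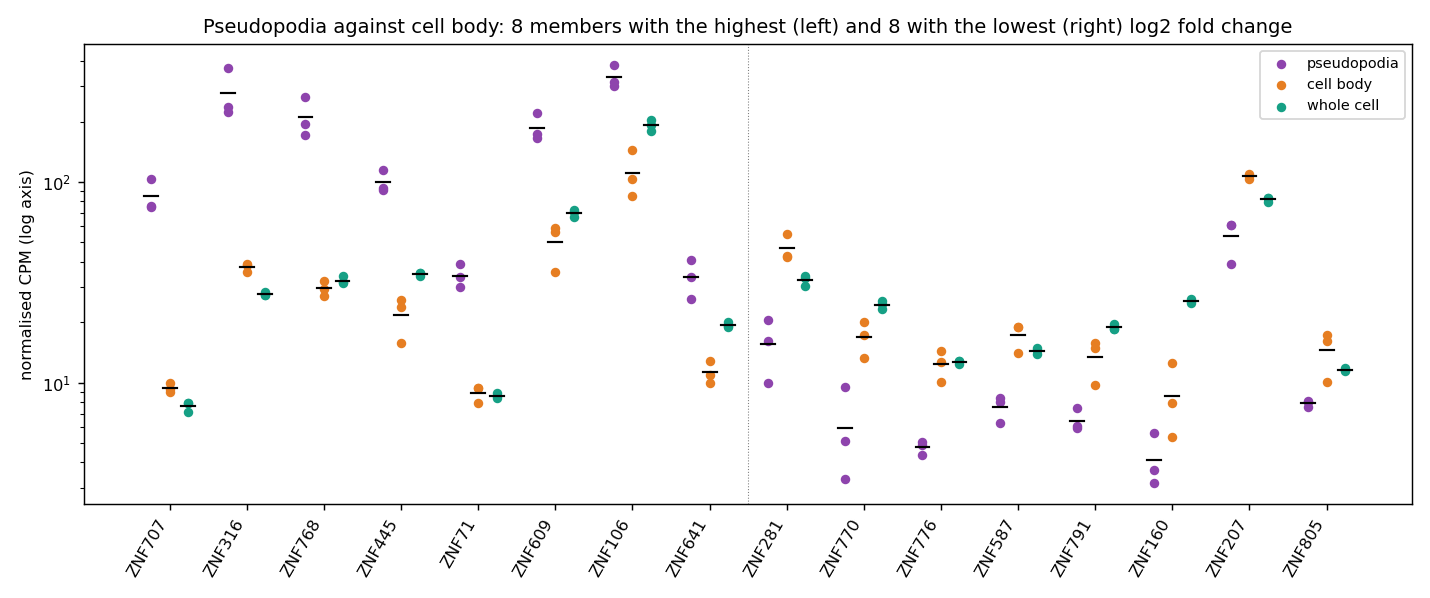
Normalised CPM (log axis) in each of the 9 libraries, with the mean of each group as a bar, for the 8 members with the highest and the 8 with the lowest log2 fold change among those called in pseudopodia against cell body. The pseudopodia points lie above both other groups for the 8 on the left, and below the cell body points on the right, except that 1 pseudopodia library of ZNF160, at 5.6, exceeds the lowest cell body library, at 5.36.

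By role, of 14 members in chromatin complexes 6 rose and none fell in pseudopodia against cell body: ZNF462, ZNF219, ZNF592, ZNF335, ZNF512B and ZNF318. The median over the 14 was 0.36. Over the 17 genes of that list tested, genes under the threshold included, 6 rose, none fell and the median was 0.21. Beside this and the role counts that follow stand 18.6% of all genes called higher and 19.9% lower. For all members the shares were 35.4% and 10.4%. ZNF462, with the most fingers of all members and a role in heterochromatin and neural development, was at 27.9, 30.2 and 21.9 CPM against 7.61, 10.3 and 9.52 (log2 fold change 1.54 ± 0.164, adjusted p = 2.72e-05). ZNF592, a partner of ZNF687 and ZNF532 in a complex that reads histone acetylation through ZMYND8, was at 94.7, 82.0 and 114 CPM against 43.8, 64.4 and 55.5 (log2 fold change 0.83). Its partners did not pass, ZNF687 at 0.14 and ZNF532 at 0.38. ZNF335, which recruits a histone methyltransferase complex, rose by 0.74. On log2(TPM + 1) ZNF335 and ZNF318 did not pass (adjusted p = 0.0523 and 0.0598, limma).

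Of 10 members that bind RNA or ribosomes, ZNF598, ZNF106 and ZNF326 rose, ZNF207 fell and 6 did not pass, with a median of 0.26. ZNF598, the ubiquitin ligase that senses collided ribosomes, was at 101, 87.7 and 120 CPM in pseudopodia and 54.6, 60.6 and 55.3 in cell bodies (log2 fold change 0.85 ± 0.135, adjusted p = 0.000482). ZNF326, a component of a complex that couples transcription to splicing, was at 8.23, 28.0 and 10.5 CPM against 5.79, 7.73 and 3.73. Its log2 fold change of 1.44 ± 0.442 (adjusted p = 0.0294) was carried by pseudopodia replicate 2 and was 0.70 without it.

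Of 10 members at promoters and in signalling, ZNF395, ZNF652, ZNF580 and ZNF76 rose, ZNF281 fell and 5 did not pass, with a median of 0.16. ZNF395, a factor induced by hypoxia, was at 74.0, 61.6 and 89.4 CPM in pseudopodia and 27.7, 27.4 and 28.8 in cell bodies (log2 fold change 1.42 ± 0.144, adjusted p = 1.88e-05). ZNF652, a corepressor partner, was at 39.1, 44.8 and 44.2 CPM against 16.5, 19.9 and 21.2 (log2 fold change 1.15). ZNF143, which binds promoters at chromatin loop anchors, had a log2 fold change of 0.38 and did not pass, whereas its paralog ZNF76 rose by 0.64; the difference between the 2 genes was not tested.

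Of 7 mesenchymal and developmental members ZNF609 and ZNF608 rose, ZNF503 fell and 4 did not pass, with a median of 0.02. ZNF521, a regulator of mesenchymal and blood progenitors, had a log2 fold change of 0.02. ZNF703 and its paralog ZNF503 were at 0.27 and -0.40. Of 5 members on a list drawn up for repression of transposons and upkeep of imprints, ZNF445 and ZNF45 rose and ZNF274, ZNF202 and ZNF33A did not pass. Their median was 0.35. Such a role was not checked for each gene listed. The list holds 16 genes in all, most of them under the threshold, and over the 16 the balance went the other way: 2 rose and 3 fell against cell body, with a median of -0.38, and 2 rose and 11 fell against whole cell, with a median of -2.18. The roles were listed with results of these data known and are no independent evidence of a direction.

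Against whole cells, 61 members were higher in pseudopodia, 43 lower and 40 did not pass. Over all genes 27.9% were called higher and 33.1% lower, in all 61%, and among genes with 10 CPM or more 40.8% and 27.2%, in all 68%. The members' shares, 42.4% and 29.9%, lie near those of genes at the same threshold. The median log2 fold change was 0.21, or 0.32 above that of all genes, but genes with 10 CPM or more had a median of 0.17. Among the 95 members with 10 CPM or more in each group 49 were higher and 17 lower. With the threshold at 5 CPM (222 genes) 70 were higher and 87 lower. On log2(TPM + 1) the balance turned, with 40 higher and 66 lower and a members' median of -0.25; that scale shifted the median of all genes by -0.22, and relative to it the members stood at 0.09. This comparison and the one against cell bodies share the pseudopodia libraries.

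ZNF469, a gene of the corneal and connective tissue matrix whose loss causes brittle cornea syndrome, had the highest value. It was at 320, 318 and 452 CPM in pseudopodia and 29.9, 25.8 and 30.5 CPM in whole cells, a log2 fold change of 3.66 ± 0.241 (adjusted p = 7.38e-07). ZNF707 followed at 3.47 ± 0.162, with 7.88, 7.16 and 7.89 CPM in whole cells, then ZNF316 at 3.32 ± 0.192 and ZNF768 at 2.71 ± 0.169. ZNF71 (1.99), ZNF275 (1.96), ZNF385A (1.80) and ZNF335 (1.74) completed the 8 highest. In none of these 8 did the pseudopodia and whole-cell libraries overlap, which their choice by fold change favours. Of all genes, 61% were called by the test in this comparison, which is another measure.

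The 8 members with the lowest log2 fold changes had lower levels in every pseudopodia library than in any whole-cell library, which their choice by fold change also favours. Here too the share over all genes was not counted. ZNF83, a long row of fingers on chromosome 19 (chr19:52594060-52690496), was at 2.24, 6.25 and 2.76 CPM in pseudopodia and 41.6, 39.3 and 41.2 in whole cells (log2 fold change -3.43 ± 0.43, adjusted p = 0.000123). ZNF292, a transcription factor mutated in tumours and in intellectual disability, was at 1.31, 5.48 and 2.51 CPM against 26.5, 24.6 and 26.2 (log2 fold change -3.05 ± 0.508). ZNF84 was at 2.89, 5.19 and 2.58 CPM against 28.4, 26.7 and 26.8 (log2 fold change -2.94 ± 0.411). ZNF160 (-2.63), ZNF33A (-2.44), ZNF277 (-2.30), ZNF25 (-2.22) and ZNF146 (-2.06) followed. In each of the 8, pseudopodia replicate 2 was the highest pseudopodia library. Without it the values of ZNF83, ZNF292, ZNF33A, ZNF277, ZNF25 and ZNF146 were -4.02, -3.76, -3.07, -3.35, -3.03 and -2.96. With the correction for GC content and length 6 of the 8 moved toward 0 by more than 1.5-fold: ZNF292 to -1.62, ZNF84 to -2.0, ZNF33A to -1.37, ZNF277 to -1.35, ZNF25 to -1.27 and ZNF146 to -1.39. All 8 stayed called.

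By role, 4 of the 10 RNA and ribosome members were higher than in whole cells and 3 lower, with ZNF385A and ZNF622 joining ZNF106 and ZNF598 among the former and ZNF638, ZNF277 and ZNF207 among the latter. Of the 14 chromatin members 3 rose (ZNF219, ZNF592 and ZNF335) and 3 fell (ZNF644, ZNF655 and ZNF512). Over the 17 genes of that list tested, 3 rose and 5 fell, beside 27.9% and 33.1% of all genes. With the correction for GC content and length, ZNF644 went from -1.86 to -0.62 and ZNF512 from -0.63 to -0.24 and neither passed (adjusted p = 0.0512 and 0.199, edgeR), and ZNF655 went from -1.58 to -0.55 and stayed called. Of the 10 at promoters 5 rose and 4 fell. ZNF148, a factor that binds GC-rich promoters, was among the falls at 17.6, 32.3 and 12.8 CPM against 56.2, 53.5 and 56.5 (log2 fold change -1.41, adjusted p = 0.00483), and its value was -0.09 with the correction for GC content and length (adjusted p = 0.668, edgeR). Of the 7 mesenchymal members 5 rose and ZNF608 fell, by 1.79 on the log2 scale. Beside all these role counts stand 27.9% of all genes called higher and 33.1% lower. Among genes with 10 CPM or more the shares were 40.8% and 27.2%.

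Between cell bodies and whole cells the balance was downward. Of the 144 members, 26 were higher in cell bodies, 49 lower and 69 did not pass, with 18.1% of all genes called higher and 20.5% lower, in all 38.6%, and 29.3% and 12.1%, in all 41.4%, among genes with 10 CPM or more. The members' shares were 18.1% and 34%. The members' median log2 fold change was -0.21, or -0.14 relative to all genes, while genes with 10 CPM or more had a median of 0.16. Among the 95 members with 10 CPM or more in each group the counts were 18 and 23, and their median was 0.01 above that of all genes. On log2(TPM + 1) 25 were higher and 70 lower, so that 26.3% of calls were upward in place of 34.7%. That share was 30.1% with upper-quartile factors, 46.3% with no filter on low counts and between 37.9% and 44.8% when 1 cell body or whole-cell library was left out.

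ZNF469 again stood at the top, at 248, 454 and 383 CPM in cell bodies, 12.6-fold above whole cells (log2 fold change 3.65 ± 0.241, adjusted p = 2.66e-06). It did not pass between pseudopodia and cell bodies, where its log2 fold change was 0.01. ZNF275 was at 74.2, 120 and 122 CPM in cell bodies against 31.6, 31.4 and 30.8 in whole cells (log2 fold change 1.75 ± 0.204). ZNF385A, which binds the 3′ ends of messenger RNAs and cooperates with p53, was at 56.8, 63.3 and 52.5 CPM against 18.7, 19.7 and 20.5 (log2 fold change 1.55 ± 0.156). ZNF830, ZNF668, ZNF526, ZNF622 and ZNF408 followed with log2 fold changes between 1.07 and 1.26. The DNA repair factors among them, ZNF830 and ZNF668, were at 7.32, 6.65 and 7.78 and at 7.46, 7.22 and 7.18 CPM in whole cells, under the 10 CPM that the choice of members set for the mean.

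At the other end ZNF83 (-3.00), ZNF292 (-2.88), ZNF33A (-2.69), ZNF638 (-2.53), ZNF84 (-2.41), ZNF608 (-2.32), ZNF277 (-2.18) and ZNF25 (-2.01) had the lowest log2 fold changes. ZNF608, a paralog of ZNF609, had the most even replicates of these: 6.27, 6.09 and 6.37 CPM in cell bodies against 31.5, 30.5 and 31.7 in whole cells (SE 0.152, adjusted p = 1.9e-06). ZNF638, a nuclear protein that silences unintegrated DNA and acts in adipocyte differentiation, was at 8.07, 20 and 6.4 CPM against 71.8, 63.2 and 64.3 (log2 fold change -2.53 ± 0.611, adjusted p = 0.0107). Its value was -3.19 without cell body replicate 2. With the correction for GC content and length ZNF292 was at -1.80, ZNF33A at -2.03, ZNF638 at -1.86 and ZNF84 at -1.75, and all 4 stayed called. Of the 14 chromatin members 8 were lower in cell bodies than in whole cells and only ZNF335 was higher. ZNF462 showed the largest fall among the 14, by 1.82 on the log2 scale. Over the 17 genes of that list tested, 1 was higher and 10 lower, beside 18.1% and 20.5% of all genes. Of the 7 mesenchymal members 4 were higher, ZNF469, ZNF503, ZNF697 and ZNF703, and ZNF608 was lower, beside the same shares of all genes. Among genes with 10 CPM or more 29.3% were called higher and 12.1% lower.

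**Figure D3:**
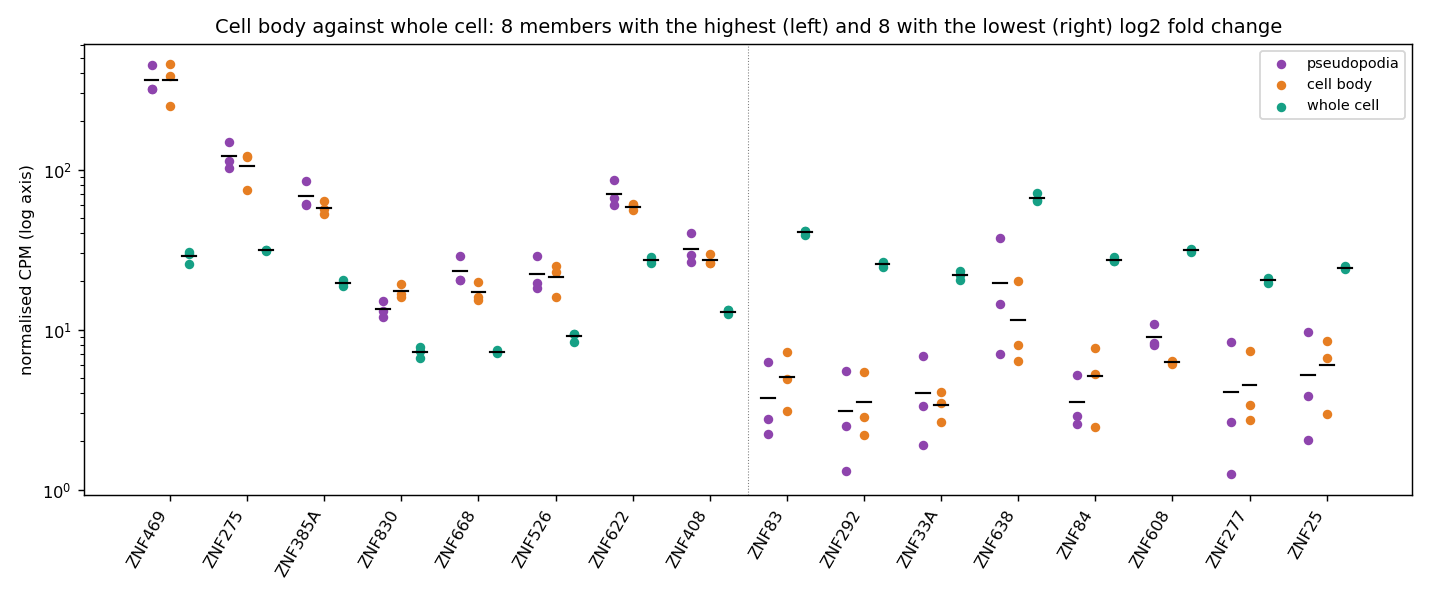
Normalised CPM (log axis) in each of the 9 libraries, with the mean of each group as a bar, for the 8 members with the highest and the 8 with the lowest log2 fold change among those called in cell body against whole cell. For ZNF469 all 6 pseudopodia and cell body libraries lie between 248 and 454 and the whole-cell libraries between 25.8 and 30.5.

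The whole-cell libraries often lay outside the range of both fractions. In 45 members all 3 whole-cell libraries were above all 6 pseudopodia and cell body libraries, ZNF83 and ZNF608 among them, and in 36 members they were below all 6, ZNF469, ZNF275 and ZNF385A among them. In the other 63 they fell within or overlapped that range. These are 31.2% and 25% of members, beside 16.9% and 31.4% of genes with 10 CPM or more. A member could reach the threshold through whole cells alone, as ZNF83 and ZNF277 did, and that favours the first position. Among the 95 members with 10 CPM or more in each group, 21 were above all 6 and 26 below, or 22.1% and 27.4%. The median transcript GC content was 43.2% in the 45 members, 59.2% in the 36 and 51.8% in the 63. The group with the highest mean was pseudopodia in 62 members, whole cells in 62 and cell bodies in 20. How the whole-cell material was collected is not described separately, and its collection and its composition cannot be told apart here. This count was made after the values were seen.

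Base composition moved with all 3 comparisons. Across the 144 members, the log2 fold change correlated with the GC content of the transcript at Spearman's rho = 0.50 in pseudopodia against cell body, 0.70 in pseudopodia against whole cell and 0.51 in cell body against whole cell. Across 8692 genes with 10 CPM or more the values were 0.31, 0.43 and 0.31. These are descriptions over genes that share their libraries, and genes are not replicates. Without pseudopodia replicate 2, rho in the members was 0.63 and 0.74 in the 2 pseudopodia comparisons, and without replicate 3 it was 0.31 and 0.64. The members had a median GC content of 49.9%, from 35.6% to 71.1%, close to the 49.5% of genes with 10 CPM or more.

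**Figure D4:**
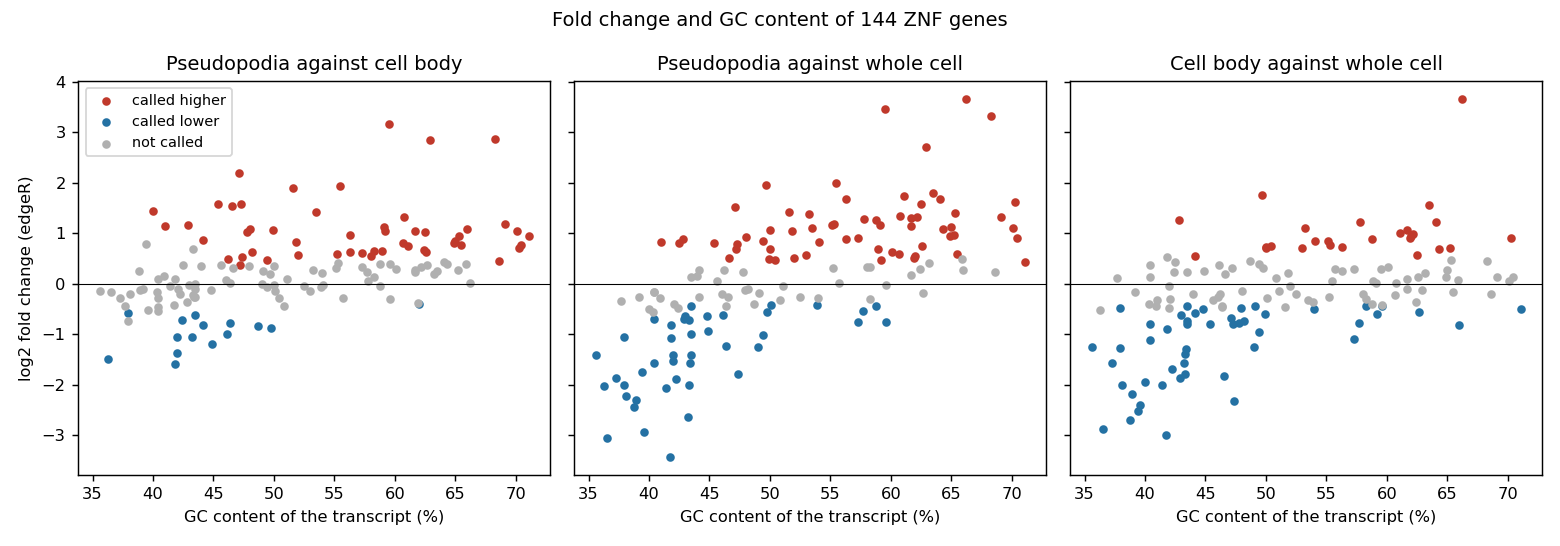
Log2 fold change (vertical axis, edgeR) against the GC content of the transcript in percent (horizontal axis) for the 144 members, in each of the 3 comparisons, coloured by call. The points called lower gather at the left of each panel, and Spearman's rho is 0.50, 0.70 and 0.51.

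Divided by GC content into 48 members up to 45.6%, 48 up to 57.3% and 48 above, a division made after the correlation was seen, the calls separated. Among the 48 with the lowest GC content 5 rose and 10 fell in pseudopodia against cell body, among the 48 in the middle 20 rose and 4 fell, and among the 48 with the highest 26 rose and 1, ZNF503, fell. Genes with 10 CPM or more in the same GC ranges were called higher in 12.2%, 29.1% and 38.7% and lower in 30.2%, 21.6% and 17.4%. The members' shares in the highest range, 54.2% and 2.08%, stood beside 38.7% and 17.4%. Against whole cells, 4 of the lowest 48 members were higher in pseudopodia and 31 lower (8.33% and 64.6%), beside 17.4% and 43.4% of genes in that range. Of the highest 48, 33 were higher and 4 lower (68.8% and 8.33%), beside 59.5% and 15.5%. In cell bodies against whole cells, 2 and 29 of the lowest 48 were higher and lower (4.17% and 60.4%), beside 15.9% and 19.2%, and 14 and 8 of the highest 48 (29.2% and 16.7%), beside 35.7% and 6.24%. With the correction for GC content and length, 57 members were higher and 17 lower in pseudopodia against cell body, 63 and 38 in pseudopodia against whole cell, and 36 and 54 in cell body against whole cell. The members' median relative to that of all genes went from 0.31 to 0.22, from 0.32 to 0.16 and from -0.14 to -0.17 with the correction, while 44.5%, 63.3% and 46.1% of all genes were called.

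**Figure D5:**
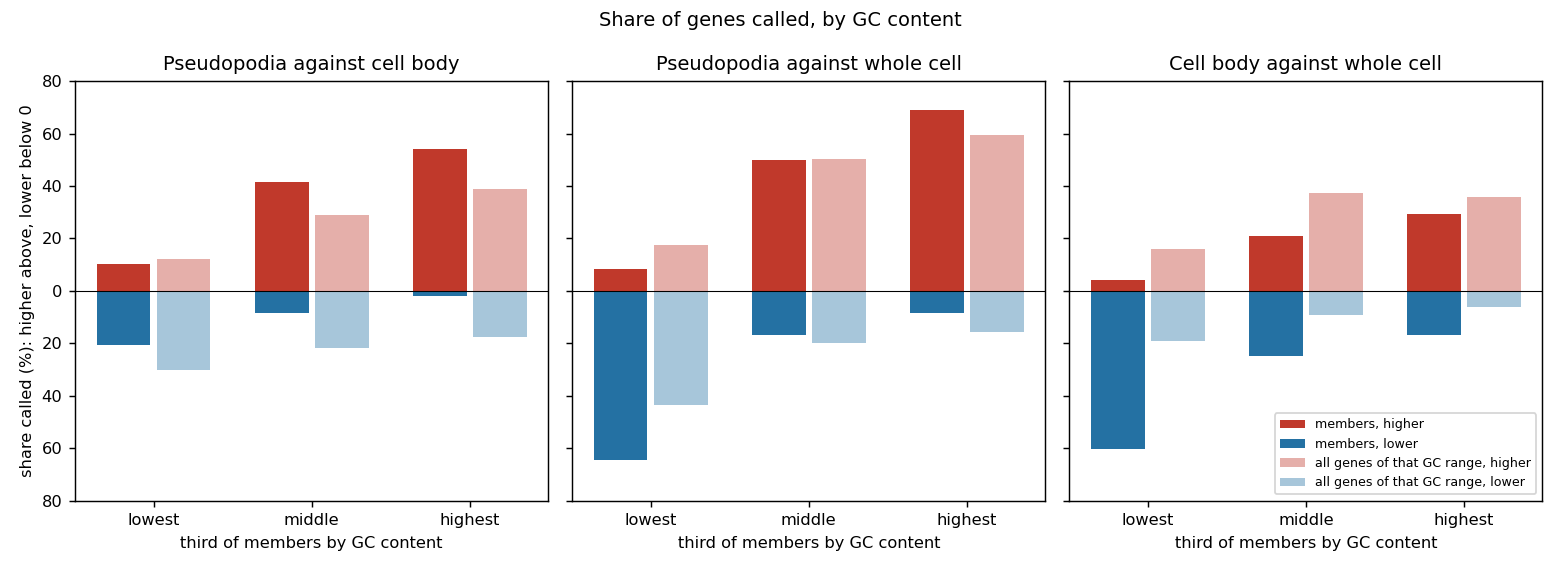
Share of genes called higher (bars above 0) and lower (bars below 0), in percent, for the 48 members with the lowest, the middle and the highest GC content, in each comparison. Full colour marks members and pale colour all genes with 10 CPM or more in the same GC range; in pseudopodia against cell body the members called higher go from 10.4% to 41.7% and 54.2%.

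The calls were also counted by subfamily. Of the 48 members with a KRAB-like stretch 11 rose and 8 fell against cell body (median 0.08), and of the 95 coding members without one 40 rose and 7 fell (median 0.35). These are 22.9% and 16.7% with the stretch, near the 18.6% and 19.9% of all genes, and 42.1% and 7.37% without it. Against whole cell the counts were 13 and 20 with the stretch and 48 and 23 without it, and in cell body against whole cell 6 and 19 with it and 20 and 30 without it. The pattern misses diverged KRAB boxes, so genes of the KRAB kind can be among the 95. The difference between the 2 sets was not tested. Their GC content differed too, with a median of 47.9% with the stretch and 52.5% without it. ZNF707, ZNF316, ZNF445 and ZNF71, 4 of the 5 members with the largest rise against cell body, hold the stretch, as do ZNF776, ZNF587, ZNF791, ZNF160 and ZNF805 among the 8 with the largest fall. On chromosome 19, 12 of the 42 members rose and 9 fell in pseudopodia against cell body, against 39 and 6 of the 102 elsewhere. These are 28.6% and 21.4% on chromosome 19 and 38.2% and 5.88% elsewhere, beside 18.6% and 19.9% of all genes. The number of fingers had little relation to the fold change, with rho of -0.14, -0.18 and -0.16 in the 3 comparisons over 143 coding members, and so did the longest run of purines in the 3′ untranslated region, with rho of -0.04, -0.10 and -0.13 over 136.

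The ZNF genes under the threshold, set beside the members only for comparison, held 0.0625% to 0.0795% of counts in pseudopodia, 0.0749% to 0.0856% in cell bodies and 0.168% to 0.173% in whole cells. Of the 375, 317 could be tested. In pseudopodia against cell body 30 were higher and 60 lower (9.46% and 18.9%), beside 18.6% and 19.9% of all genes. Against whole cell 15 were higher and 232 lower (4.73% and 73.2%), beside 27.9% and 33.1%. In cell body against whole cell the counts were 14 and 207 (4.42% and 65.3%), beside 18.1% and 20.5%. The medians of the 317 were -0.31, -1.51 and -1.19. Their transcripts had a median GC content of 42.1%, and 226 of the 306 with a coding sequence held a KRAB-like stretch. The difference between these genes and the members was not tested, and the threshold itself separates them by level.

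A list of 35 genes of KRAB corepressors and of silencing in general contains no ZNF member. It includes TRIM28, its histone methyltransferase SETDB1 and the NuRD deacetylase complex, and not all of its genes are partners of KRAB proteins. In pseudopodia against cell body 17 rose, 3 fell and 15 did not pass, with a median of 0.45. Those shares are 48.6% and 8.57%, beside 18.6% and 19.9% of all genes and 25.5% and 23.6% of genes with 10 CPM or more. CHD3, a NuRD remodeller that binds TRIM28, rose by 3.04 ± 0.164 on the log2 scale (adjusted p = 2.83e-07), GATAD2A, another NuRD subunit, by 1.98 ± 0.168, and ATRX, a remodeller of heterochromatin, by 1.69 ± 0.491 (adjusted p = 0.0228). ATRX was at 17.6, 74.9 and 26 CPM in pseudopodia against 10.8, 17.2 and 8.62, its value was 0.83 without pseudopodia replicate 2, and it lost its call without cell body replicates 1 (1.64) and 3 (1.51). Against whole cell 14 were higher and 7 lower (40% and 20%, beside 27.9% and 33.1% of all genes), with a median of -0.04. GATAD2A was at 3.57, CHD3 at 2.80 and ATF7IP, which stabilises SETDB1, at -2.03. In cell body against whole cell 4 were higher and 9 lower (11.4% and 25.7%, beside 18.1% and 20.5% of all genes), with a median of -0.13. ATRX was at -2.52, ATF7IP at -2.29 and SMARCAD1 at -2.22. With the correction for GC content and length ATRX was at -1.44 and SMARCAD1 at -1.38.

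Some calls were lost when any 1 of several libraries was left out, which does not show that they rested on a single library. With all libraries ZNF45 was at 0.48 (adjusted p = 0.0276, edgeR) and ZNF503 at -0.40 (adjusted p = 0.0462, edgeR) in pseudopodia against cell body. In pseudopodia against cell body, ZNF160 lost its call when pseudopodia replicate 1 (log2 fold change -0.89) or 3 (-0.97) or cell body replicate 2 (-0.68) was left out. ZNF326 lost it without pseudopodia replicate 3 (1.66) and without cell body replicates 1 (1.47) and 3 (1.21). It kept the call without pseudopodia replicate 2, at 0.70 in place of 1.44. ZNF608 lost it without pseudopodia replicate 1 (0.38) and cell body replicate 2 (0.51). ZNF45 lost it without pseudopodia replicates 1 (0.45) and 2 (0.37) and without each cell body replicate (0.46, 0.48 and 0.51). ZNF503 lost it without pseudopodia replicate 1 (-0.29), without cell body replicates 2 (-0.33) and 3 (-0.37) and without each whole-cell replicate (-0.38, -0.38 and -0.41). The high members ZNF707, ZNF316, ZNF768, ZNF445, ZNF71, ZNF609, ZNF106 and ZNF641 kept their calls in this comparison under every alternative run.

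In pseudopodia against whole cell, ZNF638, at -1.75 with all libraries, lost its call without pseudopodia replicates 1 (-1.35) and 3 (-1.57) and without each whole-cell replicate (-1.67, -1.76 and -1.78), and was at -2.62 without pseudopodia replicate 2. ZNF384 was at -0.42 with all libraries and lost its call, at values between -0.42 and -0.36, without pseudopodia replicate 1 or 2, cell body replicate 3 or any whole-cell replicate. ZNF644 was at -1.86 with all libraries and at -2.82 without pseudopodia replicate 2. With no filter on low counts ZNF277, ZNF638, ZNF644 and ZNF384 did not pass (adjusted p = 0.0659, 0.128, 0.0671 and 0.122, edgeR). On log2(TPM + 1) ZNF106, ZNF143, ZNF503, ZNF697 and ZNF76 did not pass, with adjusted p between 0.134 and 0.671 (limma).

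In cell body against whole cell, ZNF644 lost its call without any 1 of the 6 libraries compared (-1.70 to -1.43). ZNF687 lost it without any of those 6 or pseudopodia replicate 1 (-0.50 to -0.35). ZNF827 lost it without cell body replicate 1 or 3, pseudopodia replicate 1 or any whole-cell replicate (-0.52 to -0.29). ZNF512 and ZNF277 lost it without cell body replicate 2 or 3 or any whole-cell replicate (-0.50 to -0.46 and -2.19 to -1.91). ZNF516 lost it without whole-cell replicate 1 (-0.45) and ZNF25 without cell body replicate 3 (-1.66). With no filter on low counts ZNF25, ZNF277, ZNF638, ZNF148, ZNF644, ZNF512, ZNF687 and ZNF827 did not pass, with adjusted p between 0.0535 and 0.146 (edgeR).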

How the data were processed

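Counts per gene were made by the authors with featureCounts, per the labels, and deposited for 62709 genes in 9 libraries; 1 line without values was left out. The deposited TPM tables, made by the authors, give 1 value per gene and library and hold the gene symbols (28809 identifiers); they fit the counts up to 1 length per gene and 1 factor per library. GRCh38 and DESeq2 are named in the submitters' processing notes. For the aligner, annotation and strand setting: not given in the sources used here. The members and lists were chosen with earlier results of these data known.

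Counts were tested with edgeR 4.0.16 in R 4.3.3 (TMM factors, filterByExpr by group, robust quasi-likelihood F-test, 3 groups of 3 in 1 fit, Benjamini-Hochberg over 19426 genes, called under 0.05). CPM values are scaled by the TMM factors, except the raw CPM of the threshold, which is the count over the library total. Alternatives used DESeq2 1.42.0, limma 3.58.1 (voom, and log2(TPM + pseudocount) with pseudocounts of 1 and 0.1), other scalings and filters, GC and length correction, a replicate block and each library left out. On simulated counts for pseudopodia against cell body (18908 genes) the test recovered 34.3% of 2-fold and 87.9% of 4-fold changes and called 4 unchanged genes. The simulation gave each gene 1 spread in all groups and no drift with GC content, unlike these libraries. Its rates may not hold here. Whether replicate numbers pair the samples was not settled. None of the correlations of same-numbered libraries passed 0.1, but deviations that follow GC content could hide a shared origin.

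Named members were the 8 highest and 8 lowest called in each comparison, all members of the role lists, and those highest by CPM and TPM. Positions, GC content and lengths come from GENCODE release 29 (GRCh38). Finger patterns (2 cysteines 2 to 4 residues apart, 12 residues, 2 histidines 3 to 5 apart) and KRAB-like stretches were counted in its translated coding sequences, in place of RefSeq proteins as first designed. The KRAB pattern was chosen after several were compared by how many members they hit, and diverged boxes can be missed. The divisions by GC content, chromosome and subfamily were chosen after results were seen. Exons of 62 members overlap another gene, 50 of them on the opposite strand and 22 on the same strand.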

Additional observations from a re-analysis of the deposited data

How the results depend on the processing

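There were 118 results on named genes and 2478 pairs of such a result and an alternative. Of the pairs, 2342 kept their direction and side of the threshold, 136 kept their direction but no longer passed, and none reversed. Of the 118 results, 88 kept their direction and side of the threshold under every alternative tried. Their size could still move by more than 1.5-fold, as for ZNF83, ZNF84, ZNF292 and ZNF33A in pseudopodia against whole cell. Counts of members depended more on the setting, as did the share of all genes called, and the cause was not tested. In pseudopodia against cell body, limma-voom with sample weights called 60 members higher and 32 lower, and 57.3% of all genes in place of 38.5%. On log2(TPM + 1) 35 were higher and 28 lower, and on log2(TPM + 0.1) 30 and 26, with 41.7% and 41.6% of all genes called. With each library left out in turn, 43 to 58 were higher and 10 to 23 lower. The 23 came without pseudopodia replicate 2 and the 10 without cell body replicate 2, with 42.6% and 30.3% of all genes called. In pseudopodia against whole cell, 40 were higher and 66 lower on log2(TPM + 1) and 38 and 65 on log2(TPM + 0.1), and with each library left out 55 to 66 were higher and 34 to 45 lower. In cell body against whole cell, 45 were higher and 67 lower with limma-voom, and 41 and 65 when only the 6 libraries compared were fitted. Those settings called 61.6% and 57% of all genes, in place of 38.6%. With each library left out 25 to 37 members were higher and 32 to 65 lower. The 32 came without whole-cell replicate 1, where 25.4% of all genes were called. Other thresholds change the number of members itself. At a mean of 5 CPM (222 genes) 59 were higher and 28 lower in the first comparison, 70 and 87 in the second and 34 and 91 in the third. In the second, pseudopodia against whole cell, the balance thus turned downward, and the median was -0.21, or -0.10 relative to all genes. At 20 CPM (68 genes) 32 were higher and 5 lower, 38 and 14, and 13 and 23 in the same order. Among the 95 with 10 CPM in each group 6, 17 and 23 were lower.

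Same-numbered libraries deviated together at correlations of -0.0807 to 0.0901. These cannot decide whether the numbers pair the libraries, since deviations in pseudopodia followed GC content and could hide a shared origin. With the replicate number as a block, 47 members were higher and 14 lower in pseudopodia against cell body, 60 and 43 in pseudopodia against whole cell and 26 and 44 in cell body against whole cell; with the block and the GC and length correction the counts were 57 and 16, 60 and 40, and 36 and 54. Small differences were mostly missed in simulated counts: for pseudopodia against cell body, 5.97% of 1.5-fold changes were recovered. That simulation did not carry the unequal spread of the groups or the drift with GC content.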

Other observations

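Other zinc finger families were counted beside the ZNF members, after the members' values were seen. Of 86 genes with ZBTB, ZKSCAN, ZSCAN or ZFP symbols, which join fingers to a BTB or SCAN domain or carry older names, 17 were higher and 14 lower in pseudopodia against cell body, 17 and 40 in pseudopodia against whole cell, and 8 and 38 in cell body against whole cell (edgeR, adjusted p under 0.05). These are 19.8% and 16.3%, 19.8% and 46.5%, and 9.3% and 44.2% of the 86. The shares over all genes were 18.6% and 19.9%, 27.9% and 33.1%, and 18.1% and 20.5%. The medians of the 86 were -0.04, -0.42 and -0.50. The ZNF members' medians were 0.27, 0.21 and -0.21. The difference between the families was not tested.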
